A study of Mus musculus with 3 samples.

Results

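The genes described here encode parts of the gamma-delta T-cell receptor. They were taken from a list of names: 4 constant regions (Trdc, Tcrg-C1, Tcrg-C2 and Tcrg-C4) and 6 variable (V) segments (Tcrg-V1, Tcrg-V2, Tcrg-V4, Tcrg-V6, Trdv4 and Trdv5). All 10 were found among the 55536 genes of the deposited gene tables, 9 by their symbol and 1 by a synonym. The tables list Tcrg-V2 as Trgv2, and the RefSeq gene table pairs those names. 7 of the 10 belong to the gamma chain and 3 to the delta chain.

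A T cell carries either an alpha-beta or a gamma-delta receptor. Each chain is made by joining a V segment to a J segment (with a D segment between them in the delta chain) by DNA rearrangement, and the joined exon is spliced to a constant region. In the mouse the gamma locus is built as clusters, each with its own J segment and constant region, so that a V segment is mostly used with the constant region of its own cluster. Gamma-delta T cells are a minority among splenic T cells, and in the adult spleen most of them use Tcrg-V1 or Tcrg-V4. Tcrg-V6 and Tcrg-V5 are used by waves of cells that arise in the fetal thymus and settle in mucosal tissues and skin.

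Total RNA was sequenced in 3 libraries of splenic T cells, which the labels mark with CD3, the signalling part of the T-cell receptor. The mice were virgin B6CASTF1/J females aged 66 days, F1 hybrids with C57BL/6 as the mother strain and CAST/EiJ as that of the father, with no treatment named in the labels. Each library was made from 300 ng of RNA with ERCC spike-in RNA and a directional kit. The 3 libraries are replicates 1 to 3 of 1 group with 1 donor record and 3 sample records, so a p-value here reflects only how far these samples spread, and that spread may be technical. They held 16.9 M, 15.0 M and 16.2 M estimated counts in genes. All 10 T-cell markers were present, the lowest at a mean of 99.3 TPM (a relative level that allows for transcript length). Markers of other cells were lower: summed over their lists, they ran from 22.7 to 29.2 TPM for natural killer (NK) cells, 8.83 to 16.7 for B cells, 24.4 to 30.1 for monocytes and macrophages, and 42.4 to 96.6 for erythroid cells.

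The mm10 sequences of the gamma constant regions show which of them a read can tell apart in that reference. The CAST/EiJ alleles, which these F1 mice also carry, were not compared. The gamma locus spanned 174.7 kb at chr13:19178024-19352756 (mm10) with 15 annotated segments. Tcrg-C1 lay at chr13:19214103-19217024 on the plus strand, Tcrg-C2 at chr13:19304649-19307551 on the minus strand, and Tcrg-C4 at chr13:19344558-19352756 on the plus strand. The first 120 coding bases of each, in exon 1, are given 5′ to 3′ with the matching 120 bases of Tcrg-C3, a gamma constant region outside the list. The Tcrg-C3 entry starts 1 base earlier, so its stretch begins at its base 2. Capitals mark bases that differ from Tcrg-C1. There were 2 in Tcrg-C2, 4 in Tcrg-C3 and 14 in Tcrg-C4.
Tcrg-C1: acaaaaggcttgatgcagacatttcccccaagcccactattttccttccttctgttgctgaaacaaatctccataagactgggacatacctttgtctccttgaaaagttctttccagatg
Tcrg-C2: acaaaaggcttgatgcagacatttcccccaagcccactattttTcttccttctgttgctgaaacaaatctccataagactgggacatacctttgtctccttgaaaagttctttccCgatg
Tcrg-C3: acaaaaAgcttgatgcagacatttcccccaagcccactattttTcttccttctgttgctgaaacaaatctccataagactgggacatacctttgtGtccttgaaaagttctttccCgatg
Tcrg-C4: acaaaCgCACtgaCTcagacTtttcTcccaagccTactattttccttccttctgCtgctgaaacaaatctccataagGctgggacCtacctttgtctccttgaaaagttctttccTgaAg

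Over the whole coding sequence Tcrg-C1 was 94.6% identical to Tcrg-C2 and 96.7% to Tcrg-C3, but 70.8% to Tcrg-C4 and 48.5% to Trdc. Of the 31-base words in the Tcrg-C1 transcript, 51.0% also occurred in Tcrg-C2 or Tcrg-C3, and none of those in Tcrg-C4 occurred in another gene's transcript. For 101-base words, the fragment length behind the deposited effective lengths, the share was 8.01% in Tcrg-C1 and 0.491% in Tcrg-C2. The deposited posterior SD of the count, which measures how far reads could be moved between genes, reached 1.07 counts for Tcrg-C1 and 1.51 for Tcrg-C2. It was 0 in every library for Tcrg-C4 and Trdc.

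The same comparison sets the limits for the V segments. Tcrg-V1 (chr13:19339989-19340454, plus strand) and Tcrg-V2 (chr13:19336573-19337167, minus strand) are neighbours in opposite orientation, and Tcrg-V3, outside the list, lies between the Tcrg-C1 and Tcrg-C3 regions. The last 120 bases of their coding sequences, in exon 2, lead up to the join with a J segment. Capitals mark bases that differ from Tcrg-V1, 6 in Tcrg-V2 and 1 in Tcrg-V3.
Tcrg-V1: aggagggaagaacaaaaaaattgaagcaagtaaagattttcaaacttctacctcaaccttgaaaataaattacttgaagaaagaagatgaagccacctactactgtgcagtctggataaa
Tcrg-V2: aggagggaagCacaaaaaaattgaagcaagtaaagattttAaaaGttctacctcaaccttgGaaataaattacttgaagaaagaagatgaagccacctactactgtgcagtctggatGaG
Tcrg-V3: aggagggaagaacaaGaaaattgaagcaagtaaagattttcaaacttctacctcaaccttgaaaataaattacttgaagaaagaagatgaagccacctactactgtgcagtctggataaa

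The coding sequence of Tcrg-V1 was 94.9% identical to Tcrg-V2 and 94.1% to Tcrg-V3. Of the 31-base words of Tcrg-V1, 44.2% were shared within these 3 segments, against 20.2% of those of Tcrg-V2. For 101-base words the shares were 1.46% and 0%. The posterior SD of the count reached 0.23 for Tcrg-V1 and was 0 for Tcrg-V2, so the gene table held their split as nearly certain. The other V members stood alone: Tcrg-V4, Tcrg-V6, Trdv4 and Trdv5 shared no 31-base word with another transcript in the same orientation. The last 60 coding bases of those 4 segments are shown with the final TGT in capitals, the codon of the conserved cysteine that opens the third complementarity-determining region.
Tcrg-V4: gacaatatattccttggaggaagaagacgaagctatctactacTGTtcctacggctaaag
Tcrg-V6: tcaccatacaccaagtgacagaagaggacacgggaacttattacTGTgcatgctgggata
Trdv4: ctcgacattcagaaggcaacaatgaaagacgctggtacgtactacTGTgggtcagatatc
Trdv5: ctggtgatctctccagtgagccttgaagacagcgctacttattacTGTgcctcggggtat
Tcrg-V4 and Tcrg-V6 lie on the plus strand at chr13:19184974-19185506 and chr13:19190356-19190929. Trdv4 lies at chr14:54074905-54075515, 67.3 kb before Trdc (chr14:54142851-54148868, plus strand). Trdv5 (chr14:54148662-54149294) is on the minus strand, so its use requires an inversion of the DNA, and its 3′ end overlapped the last exon of Trdc by 207 bases, none of them coding in Trdc. 31.7% of the 101-base words of Trdv5 were antisense to Trdc.

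Among the constant regions Trdc, the constant part of every delta chain, had the most reads. It was listed at 565, 413 and 526 estimated counts in replicates 1, 2 and 3, with exact Poisson 95% limits of 519 to 614, 374 to 455 and 482 to 573. Poisson limits cover counting error only. Replicate 2 was lowest and its limits did not overlap those of the other libraries, but it was also the library with the fewest counts. Per length the levels were 8.81, 7.12 and 8.20 TPM. The Trdc transcript is 3865 bases long with 4 exons, of which 11.8% is coding.

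Trdc stood differently beside the gamma constant regions on counts and per length. On counts it was 5.30 ± 0.628 (SD, n = 3) times as high as Tcrg-C1, and per length 1.16 ± 0.137 times. Its share of the summed Trdc and Trac levels, the delta and alpha constant regions, was likewise 1.61% on TPM and 8.65% on counts. The Tcrg-C1 transcript has 924 bases, 55.7% of them coding.

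The gamma constant regions were led by Tcrg-C4, the constant region downstream of Tcrg-V1. Tcrg-C4 was at 15.0, 10.3 and 12.2 TPM from 226, 140 and 184 counts. Tcrg-C2, the constant region used with Tcrg-V2, was at 10.2, 7.16 and 7.17 TPM. Tcrg-C1, shared by Tcrg-V4, Tcrg-V5, Tcrg-V6 and Tcrg-V7, was at 6.94, 7.07 and 6.80 TPM. Tcrg-C4 was the highest of the 3 in every library, and replicate 1 was the highest library for Tcrg-C4 and Tcrg-C2 but not for Tcrg-C1.

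Within a library, Tcrg-C4 exceeded Tcrg-C2 by 0.62 ± 0.13 on the log2 TPM scale (SD, n = 3; 1.53-fold; higher in 3 of 3 libraries). It exceeded Tcrg-C1 by 0.83 ± 0.29, or 1.78-fold, also in 3 of 3. Tcrg-C2 and Tcrg-C1 differed by 0.21 ± 0.29, with 0.55 in replicate 1 against 0.02 and 0.08 in the other libraries, which was within the spread between libraries. In the second quantification (a second deposited table, described below) that difference was 0.51 ± 0.07, positive in 3 of 3, so the tables differ on whether it exceeds the spread. An exact two-sided sign-flip permutation test gave p = 0.25 for each of these 3 ratios, the smallest p that 3 libraries allow, and 0.292 after Benjamini-Hochberg adjustment over 7 such tests. No ratio described here could therefore pass a threshold of 0.05.

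Tcrg-C3 was lower, at 1.80, 1.30 and 1.01 TPM. Over the 4 gamma constant regions, Tcrg-C4 held 45.9% ± 2.77 of the counts, Tcrg-C2 27.5% ± 1.86, Tcrg-C1 24.2% ± 3.53 and Tcrg-C3 2.44% ± 0.517 (SD, n = 3). The SD was smallest relative to the share for Tcrg-C4 and largest for Tcrg-C3. The alpha and beta constant regions together were 57.3 ± 7.15 times as high as the 3 listed gamma constant regions in TPM. That ratio was lowest in replicate 1 (50.9, against 65.0 and 56.1). It sets both chains of the alpha-beta receptor against the gamma chain alone, with Trdc left out. In these bulk samples fewer gamma-delta cells and less receptor RNA per cell cannot be told apart. Which cells the gamma RNA came from was not tested.

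**Figure D1:**
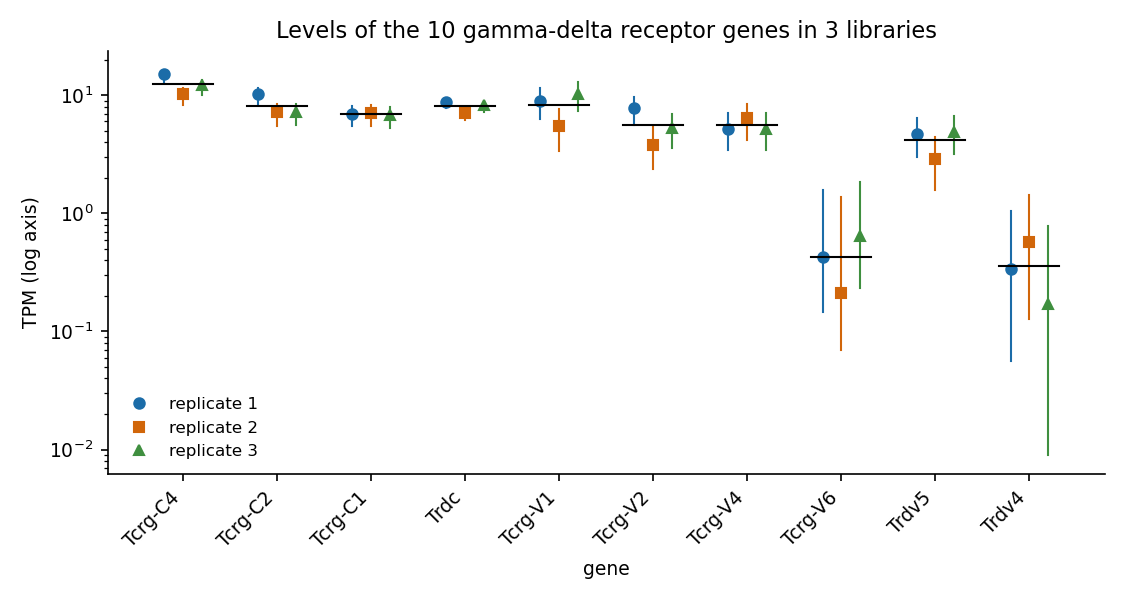
Level of each of the 10 genes in TPM on a log axis, for replicates 1 to 3 (points) with the interval that the authors' tables give for each library, its level not stated (vertical lines) and the mean (horizontal lines). 8 genes sit above 1 TPM in all 3 libraries, and Tcrg-V6 and Trdv4 sit below it in all 3.

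Of the gamma V segments, Tcrg-V1, Tcrg-V2 and Tcrg-V4 were read at similar levels in the gene table. Tcrg-V1 was at 9.00, 5.45 and 10.3 TPM from 42, 23 and 48.0 counts. Tcrg-V2 was at 7.81, 3.82 and 5.26 TPM from 52, 23 and 35 counts. Tcrg-V4 was at 5.22, 6.37 and 5.22 TPM from 29, 32 and 29 counts. The ranges of the 3 overlapped, and replicate 2 was lowest for Tcrg-V1 and Tcrg-V2 but highest for Tcrg-V4. In the second quantification Tcrg-V2 exceeded Tcrg-V4 in every library, with TPM ratios of 2.77, 1.10 and 2.02 in replicates 1, 2 and 3. The ratios of Tcrg-V1 to Tcrg-V4 there were 1.44, 0.815 and 2.44.

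Tcrg-V6 was close to the limit of what these libraries can count. It had 2, 1 and 3 counts, or 0.430, 0.210 and 0.640 TPM, and no library was above the 3 counts used here as the limit of detection. Over the 3 libraries Tcrg-V4 had 90 counts against 6 for Tcrg-V6, a ratio of 15 with an exact 95% counting interval of 6.63 to 42.0. The other fetal-wave segment, Tcrg-V5, had 0, 0 and 3 counts, and Tcrg-V7, used by intraepithelial T lymphocytes of the gut, had 2, 0 and 1.

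As a share of all gamma V counts, which were 133, 82 and 120, Tcrg-V1 held 33.2% ± 6.13, Tcrg-V2 32.1% ± 6.08, Tcrg-V4 28.3% ± 9.33 and Tcrg-V6 1.74% ± 0.672 (SD, n = 3). Tcrg-V4 ranged from 21.8% in replicate 1 to 39.0% in replicate 2. That rise in share went with 32 counts against 29, so the denominator moved more than Tcrg-V4 itself. Tcrg-V3 held 3.01% ± 1.92.

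**Figure D2:**
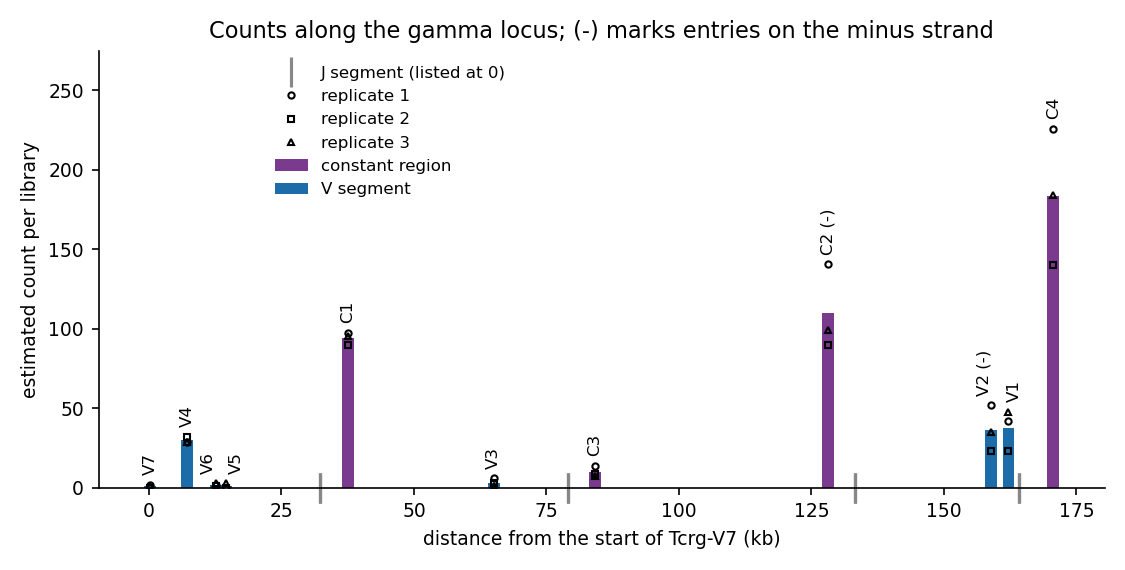
Estimated count per library along the gamma locus, against the distance from the start of Tcrg-V7 in kb. Bars are means and open points the 3 libraries. Tcrg-C4 at the right end is the tallest, and Tcrg-V1 and Tcrg-V2 stand together just before it. Grey ticks mark the J segments, listed at 0.

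The delta V members differed by an order of magnitude. Trdv5, the inverted segment downstream of Trdc, was at 4.69, 2.88 and 4.86 TPM from 27, 15 and 28 counts. Trdv4, which fetal-wave cells pair with Tcrg-V6, had 2, 3 and 1 counts, or 0.340, 0.570 and 0.170 TPM. Trdv5 was higher in 3 of 3 libraries, by 3.65 ± 1.26 on the log2 TPM scale (exact sign-flip permutation p = 0.25, adjusted 0.292). Summed over the libraries the counts were 70 and 6, a ratio of 11.7 with an exact 95% counting interval of 5.10 to 32.9. Trdv5 overlaps Trdc on the other strand, and the sources used here do not say whether strand was used in counting. In the gene table the posterior SD was 0 for both genes in every library, which left no reads uncertain between them. For the second quantification, the separation of reads within the 207 shared bases was not tested.

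Over the 5 delta-only V segments annotated as genes, Trdv5 held 33.8% ± 6.13 of the counts and Trdv4 3.14% ± 2.08 (SD, n = 3). Trdv1 had 22, 17 and 22 counts. Trdv2-1 and Trdv2-2 had 27, 20 and 20 counts together, and their split is uncertain: the posterior SD reached 1.64 counts, and Trdv2-1 was listed at 0, 0 and 8.83. On gene-table counts Trdv1, Trdv5 and the Trdv2 pair thus held similar shares, each close to the others within the spread between libraries. The order of Trdv5 and Trdv1 depended on the table and unit. On counts of the second quantification Trdv5 held 38.7% ± 5.57 and Trdv1 26.4% ± 4.69, Trdv5 being higher in every library. On gene-table TPM they held 28.5% ± 4.96 and 36.2% ± 1.52, Trdv5 being lower in every library. On TPM of the second quantification they held 32.9% ± 5.01 and 33.2% ± 4.84 (SD, n = 3).

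V segments shared by the alpha and delta chains were also read, but a read of such a segment does not say which chain it came from. All 10 of these entries had reads in at least 1 library, with 171, 195 and 177 counts in total. Trav21-dv12 led with 40.3 ± 3.79 counts, followed by Trav4-4-dv10 with 33.0 ± 4.21 and Trav14d-3-dv8 with 25.7 ± 6.34 (SD, n = 3). In the second quantification the order was another, with 19.3 ± 1.15, 16.7 ± 3.90 and 25.6 ± 0.71 counts for the same 3 segments. Trav15-1-dv6-1, Trav13-4-dv7, Trav6-7-dv9 and Trav15-2-dv6-2 lay between 12.9 and 19.0 counts on average. Of the 22 other gamma and delta segments, 17 had reads and 9 a mean of at least 10 counts. The 4 delta D and J entries, and the 4 gamma J entries added to the list after it was fixed, were listed with an effective length of 0. They are shorter than the 101-base fragment, so the tables can assign them no reads.

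Ordered by mean TPM, the 10 genes ran Tcrg-C4 (12.5 ± 2.38), Tcrg-V1 (8.24 ± 2.50), Tcrg-C2 (8.16 ± 1.73), Trdc (8.04 ± 0.856), Tcrg-C1 (6.94 ± 0.135), Tcrg-V2 (5.63 ± 2.02), Tcrg-V4 (5.60 ± 0.664), Trdv5 (4.14 ± 1.10), Tcrg-V6 (0.427 ± 0.215) and Trdv4 (0.360 ± 0.201) (SD, n = 3). The ranges of neighbours overlapped in 6 of the 9 steps. The steps without overlap were from Trdc to Tcrg-C1 and from Tcrg-V4 to Trdv5, where the deposited intervals overlapped within each library, and from Trdv5 to Tcrg-V6. 11818 genes (21.3%) were at 1 TPM or more in every library, with a median of 11.7 TPM, so of the 10 genes only Tcrg-C4 had a mean above that median.

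The V and constant regions of a cluster were then set side by side. Tcrg-V1 lies 4.10 kb before Tcrg-C4, Tcrg-V2 29.0 kb before Tcrg-C2 on the same strand, and Tcrg-V4 28.6 kb before Tcrg-C1. Per 100 counts of Tcrg-C4, Tcrg-V1 had 18.6, 16.4 and 26.1 counts. Per 100 counts of Tcrg-C2, Tcrg-V2 had 36.9, 25.6 and 35.2. Per 100 counts of Tcrg-C1, the segments Tcrg-V4 to Tcrg-V7 together had 33.9, 36.7 and 37.7. The Tcrg-V1 and Tcrg-C4 cluster was the lowest of the 3 in every library.

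The difference on the log2 scale was 0.69 ± 0.28 for Tcrg-V2 and Tcrg-C2 against Tcrg-V1 and Tcrg-C4, and 0.85 ± 0.31 for Tcrg-V4 to Tcrg-V7 and Tcrg-C1 against the same cluster, each positive in 3 of 3 libraries (SD, n = 3; exact sign-flip permutation p = 0.25, adjusted 0.292). The remaining pair differed by 0.17 ± 0.33, positive in 2 of 3 (p = 0.75 in the same exact test), and turned to -0.65 in the second quantification and to -0.012 without replicate 2. The lengths differ too: the effective length is 274 bases for Tcrg-V1, 391 for Tcrg-V2 and 326 for Tcrg-V4. Per 100 TPM of the constant region the 3 clusters had 65.8 ± 16.3, 67.9 ± 12.7 and 93.7 ± 6.22 TPM of V, so per length in the gene table the first pair differed by less than its spread. In the second quantification it was apart on both scales. The count difference of Tcrg-V2 and Tcrg-C2 against Tcrg-V1 and Tcrg-C4 was 1.76 in log2 there. Per 100 TPM of the constant region, Tcrg-V1 had 40.8, 49.6 and 86.2 TPM and Tcrg-V2 had 121, 94.8 and 118, higher in 3 of 3 libraries.

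**Figure D3:**
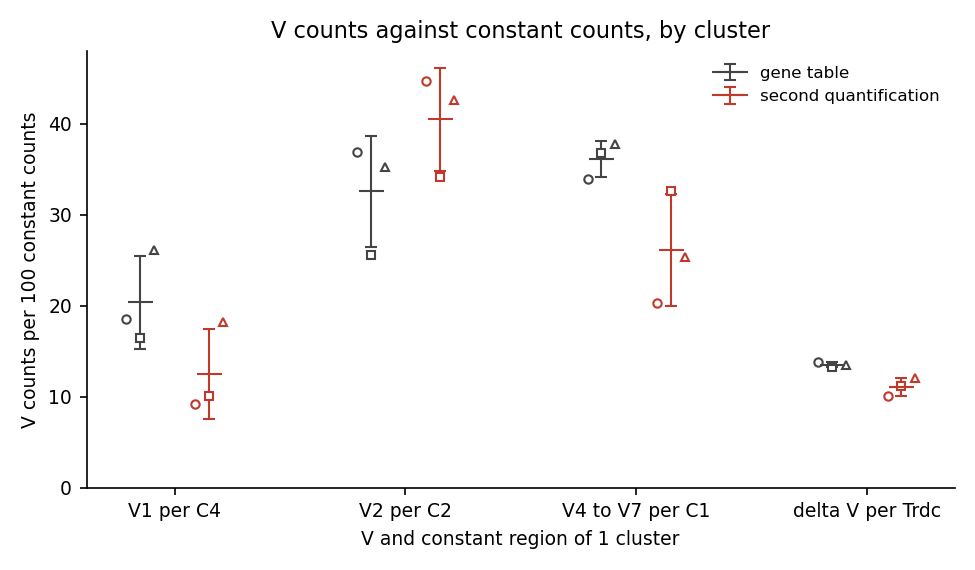
V counts per 100 constant-region counts by cluster, for the gene table (dark) and the second quantification (red). Open points are the 3 libraries, and bars are the mean and SD. Tcrg-V1 per Tcrg-C4 is the lowest gamma cluster in every library of both, and the delta ratio in the gene table lies between 13.3 and 13.8.

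In the gene table the delta ratio varied little between libraries. The delta V segments had 13.8, 13.3 and 13.5 counts per 100 counts of Trdc, and Trdv5 alone had 4.78, 3.63 and 5.32. The first ratio rests on 78, 55 and 71 delta V counts. No counting interval was computed for it, so a steady ratio cannot be read from its small spread. Per length the delta V segments summed to 178 ± 2.90 TPM per 100 TPM of Trdc (SD, n = 3). The spread was wider in the second quantification, with 11.1 ± 0.971 counts per 100 counts of Trdc and 244 ± 23.4 TPM per 100 TPM. The count ratio takes in the whole Trdc transcript, its non-coding part included.

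A second set of deposited transcript values, made from the reads with an index of the same annotation, listed other counts for the similar segments. Tcrg-V1 was listed at 21.7, 15.8 and 36.0 counts there, while Tcrg-V2 had 61.6, 34.0 and 46.0. Their sum with Tcrg-V3 was 100, 49 and 84 counts in the gene table and 85, 51 and 82 in the second quantification. The sum was close in both, and the order of Tcrg-V1 and Tcrg-V2 was not. Whether reads moved from one of these segments to another was not tested. Tcrg-V1 exceeded Tcrg-V2 by 0.56 ± 0.38 in log2 TPM in the gene table, and the difference was -0.37 ± 0.61 in the second quantification and 0.05 on counts of the gene table. Which of those segments was higher therefore cannot be said from these tables.

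Tcrg-V4, which shares no 31-base word with them in the same orientation, also differed, with 18, 24 and 18 counts in the second quantification against 29, 32 and 29. The deposited lengths of the second quantification imply a mean fragment of 278 bases, which leaves an effective length of 184 bases for Tcrg-V4 in place of 326. Trdv5 had 18, 18 and 28 counts, and Tcrg-V6 had 1, 0 and 1. Of the similar constant regions, Tcrg-C1 had 0.870 times and Tcrg-C3 0.700 times the summed counts of the gene table, and Tcrg-C2 1.05 times. Tcrg-C1, Tcrg-C2 and Tcrg-C3 together had 252, 188 and 202 counts in the gene table and 240, 179 and 193 in the second quantification. Tcrg-C4, the constant region that shares no 31-base word, was at 236, 157 and 198 counts, and Trdc at 535, 422 and 524.

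**Figure D4:**
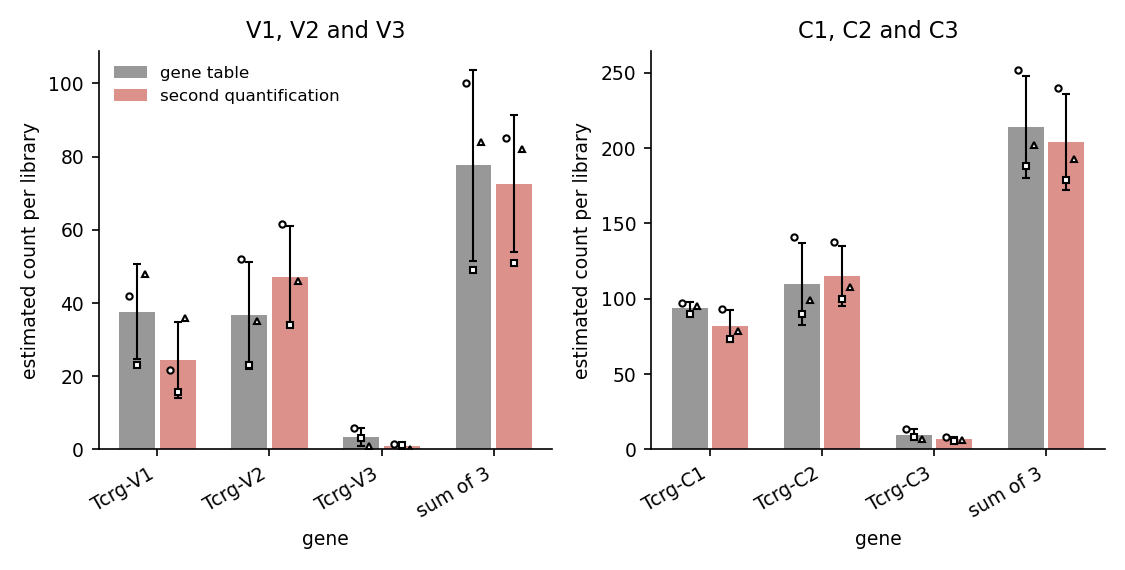
Estimated counts of the similar gamma segments in the gene table (grey) and the second quantification (red). Bars are means, error bars SD and points the 3 libraries. Tcrg-V1 and Tcrg-V2 move in opposite directions between the tables while their sum with Tcrg-V3 stays near 78 in the first and 73 in the second.

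With 1 group there was no contrast, and the one test across libraries asked whether a gene varied more than genes of like abundance do, by edgeR's quasi-likelihood fit. Of 13280 genes tested, 75 (0.565%) were called at an adjusted p under 0.05 and 755 (5.69%) had an unadjusted p under 0.05. 8 of the 10 genes were tested, since Tcrg-V6 and Trdv4 did not pass the filter on low counts, and 0 of 8 were called or had an unadjusted p under 0.05. DESeq2's dispersion outliers, 125 of 13280 genes, also held 0 of the 8. With so few genes called among all those tested, 0 of 8 says little about the listed genes. The lowest p were those of Tcrg-C4 (0.129; edgeR, adjusted 0.985) and Trdc (0.147, adjusted 0.988), and the highest that of Tcrg-C1 (0.950). A p that misses the threshold does not show that the levels were equal.

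7 of the 10 genes had their lowest TPM in replicate 2. Among the 7 were Tcrg-V6, with 1 count there, and Tcrg-C2, at 7.16 TPM there against 7.17 in replicate 3. Of the 11818 genes at 1 TPM or more in every library, 35.0% were lowest in replicate 2. Tcrg-V6 and Trdv4 are not in that set, so the 2 shares do not rest on the same filter. Tcrg-C1, Tcrg-V4 and Trdv4 instead had their highest TPM in replicate 2. The markers of NK cells, which can carry unrearranged transcripts of these loci, had a sum in the same order as Trdc and Tcrg-C4, with 29.2, 22.7 and 24.8 TPM in replicates 1, 2 and 3. 4 of the 6 NK genes had that order, Klra8 and Eomes being the others. The sum for monocytes and macrophages had that order too (30.1, 24.4 and 27.1). Of its 6 genes, only Lyz2, which makes up most of that sum, and Adgre1 did. The share of all genes with that order was not counted, so these counts of marker genes have no background. B-cell markers (11.4, 16.7 and 8.83) and erythroid markers (54.1, 96.6 and 42.4) were highest in replicate 2. In edgeR's test the hemoglobin gene Hba-a2 was called (adjusted p = 0.0321), and 4 of 4 erythroid genes tested and 5 of 6 B-cell genes had an unadjusted p under 0.05. T-cell markers differed less, with sums of 3045, 3001 and 2797. The part of these cells in the receptor values was not tested.

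**Figure D5:**
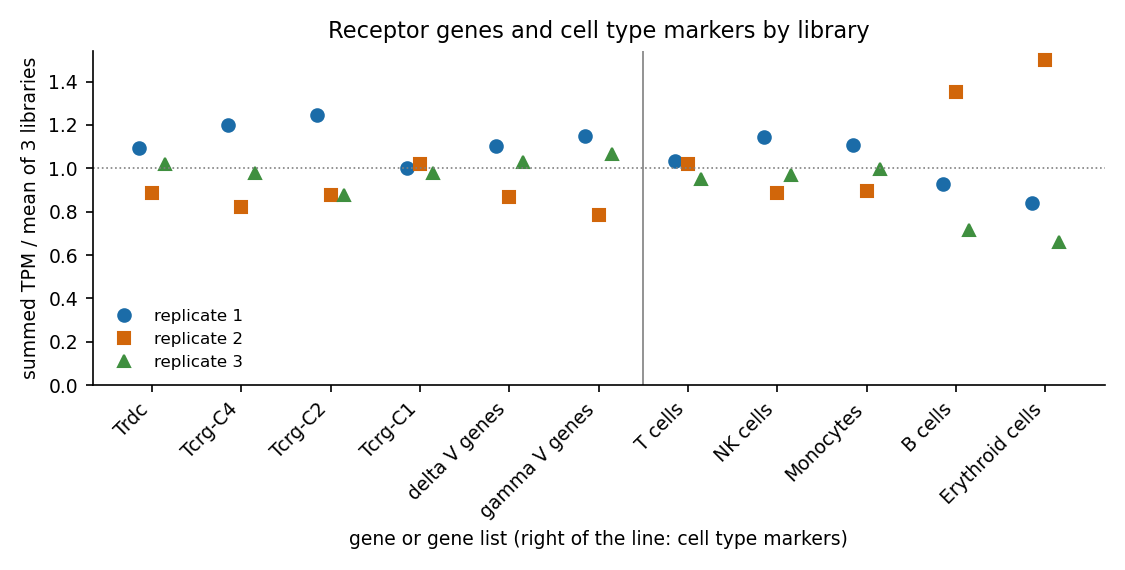
Summed TPM of receptor genes (left) and cell type markers (right) in replicates 1 to 3, divided by the mean of the 3 libraries. Replicate 2 is lowest for Trdc, Tcrg-C4, NK-cell and monocyte markers and highest for B-cell and erythroid markers, while Tcrg-C1 stays within 0.980 and 1.02.

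The NK-cell list (Ncr1, Klrb1c, Klre1, Klra8, Tyrobp and Eomes) had 5 of 6 genes at 1 TPM or more in every library. Ncr1, an activating NK receptor, was at 1.33 ± 0.231 TPM and Klrb1c at 4.58 ± 0.766 (SD, n = 3). Tyrobp, an adaptor also present in myeloid cells, was at 8.26 ± 1.60. Of the innate lymphoid list, 1 of 5 genes reached 1 TPM in every library, and Il22 was at 0 counts in all 3. Neutrophil markers summed to between 5.02 and 6.39 TPM and platelet markers to between 0.210 and 1.32. Markers of immature thymocytes were nearly absent apart from Cd1d1 (10.6 ± 1.59) and Dntt (1.15 ± 0.127): Rag2 was at 0 in all libraries and Rag1 at 0, 1 and 0 counts.

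Genes that mark gamma-delta lineages and their subsets were present at varied levels, with 13 of 22 at 1 TPM or more in every library and a median of 2.09 TPM. The highest were Cd27 (98.2 ± 1.70), a costimulatory receptor that many T cells carry, Id3 (9.50 ± 0.849), Eomes (7.63 ± 0.827) and Tbx21 (6.74 ± 1.19), the last a regulator of interferon gamma production (TPM, SD, n = 3). The lowest were the interleukin 17 gene Il17a, with 0 counts in every library, and Il1r1 (0.103 ± 0.0404). Il17a at 0 counts allows up to 3 counts per library. Cd27, Id3 and Eomes are also expressed by alpha-beta T cells or NK cells.

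Of the 22 lineage genes 16 were tested and 0 were called, and 3 had an unadjusted p under 0.05 in edgeR's test, named here after their values were seen. Maf, a transcription factor of interleukin 17-producing cells, was at 5.58, 4.43 and 3.20 TPM (adjusted p = 0.218). Zbtb16, the regulator of innate-like T cells, was at 7.54, 6.89 and 5.75 TPM (adjusted p = 0.504). Sox4 was at 3.45, 4.35 and 3.06 TPM (adjusted p = 0.852). Replicate 1 was the highest library and replicate 3 the lowest for Maf and Zbtb16, an order that neither Trdc nor Tcrg-C4 shared.

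The receptor assembly list holds the CD3 chains, which serve both receptor types, beside the alpha-beta constant regions and Ptcra. 9 of its 10 genes were at 1 TPM or more in every library, with a median of 186 TPM, led by Trbc2 (650 ± 43.3), Trac (492 ± 16.4), Trbc1 (423 ± 30.3) and Cd3e (319 ± 10.2). Cd247, the zeta chain, was at 134 ± 1.64 TPM and Fcer1g, which can take its place in some gamma-delta cells, at 3.62 ± 1.21. The exception was Ptcra, the pre-T alpha chain of thymocytes, with 1, 0 and 0 counts. Of the 9 tested, 0 were called.

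Of 10 genes of the recombination machinery, 8 were at 1 TPM or more in every library. Rag1 and Rag2, which cut the DNA, were the exceptions, and the repair genes Xrcc6 (10.9 ± 0.841), Prkdc (9.91 ± 0.512), Dclre1c (8.96 ± 0.640) and Xrcc5 (8.83 ± 0.309) led (TPM, SD, n = 3). 8 were tested and 0 called. As a description only, the genes nearest to Trdc in pattern over the 3 libraries were Kif18a, Exd2 and 8030462N17Rik (Euclidean distances of 0.0025, 0.0034 and 0.0039 in centred log2(TPM + 1)), among 10881 genes of which 1078 lay within 0.1. For the summed gamma constant regions they were Rngtt, Gm42572 and Mcph1, at 0.0037, 0.0066 and 0.01, with 571 genes within 0.1. With 3 libraries a near match is common.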

How the data were processed

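Total RNA of 3 splenic T-cell libraries was analysed as 1 group. Per the READMEs deposited with the samples, reads were aligned to the transcriptome of mm10 with GENCODE M21, by tools not given in the sources used here. Deposited tables hold estimated counts, TPM, FPKM and the percent of a gene's TPM per transcript, per the file headers, with a posterior SD of each count. A second deposited transcript table (estimated counts, TPM) was summed per gene. Parental alleles were not separated.

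Computed here: ratios and shares per library, exact Poisson and Clopper-Pearson 95% intervals, exact sign-flip tests (7, Benjamini-Hochberg), words and identity of annotated transcripts (Biopython 1.88), and edgeR 4.0.16 on rounded counts (filterByExpr, TMM, robust intercept-only fit, F test of the residual dispersion), with DESeq2 1.42.0 as an alternative, in R 4.3.3 and Python 3.11.15. The edgeR step was tested on simulated data. Other alternatives were the second quantification, other units, filters and leaving out each replicate. Total counts of 15.0 M to 16.9 M leave genes of 3 counts or fewer undetermined. Sequences are mm10 transcripts of the GENCODE annotation.

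Named were all 10 genes, other gamma and delta segments with a mean of at least 10 counts, the 4 highest and 2 lowest of each list and the 3 nearest patterns. Tcrg-V3 and Tcrg-C3 were named for their similarity to members, Trdv2-1 and Trav15d-1-dv6d-1 after their values were seen, and Tcrg-V5 and Tcrg-V7 for their cluster. Members and lists were chosen with earlier results of these data known.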

Additional observations from a re-analysis of the deposited data

How the results depend on the processing

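Of 157 levels, shares and counts of genes recomputed under alternatives, 128 moved by less than the spread between replicates (for counts of genes, within 1.5 times) and 29 by more. These totals do not measure robustness. Leave-one-out levels, shares and ratios could not move by more than the SD. The levels of the listed genes summed from their transcripts had the same values as the gene levels. Of 54 values of the ratios with a sign-flip test, 52 kept their direction and 7 moved by more than their SD. In the second quantification Tcrg-C2 to Tcrg-C1 was 0.51, Tcrg-C4 to Tcrg-C1 1.12 and the Tcrg-V2 and Tcrg-C2 against the Tcrg-V1 and Tcrg-C4 difference 1.76, in log2. In TPM that last difference was 0.055, and the difference of the Tcrg-C1 cluster against Tcrg-V1 and Tcrg-C4 was 0.54. With a pseudocount of 1 TPM, Trdv5 to Trdv4 was 1.91. Both values that changed sign were the difference in V per constant counts between Tcrg-V4 to Tcrg-V7 with Tcrg-C1 and Tcrg-V2 with Tcrg-C2: 0.17 in log2 became -0.65 in the second quantification, and ranged from -0.012 to 0.31 when each replicate was left out. The share of Trdc in Trdc and Trac was 8.65% on estimated counts, which are not divided by transcript length. Against 75 of 13280 genes called for their spread, 303 of 22813 tested were called with no filter on low counts. With a non-robust fit 28 of 13280 were called, and by DESeq2's dispersion outliers 125 of 13280. Leaving out a replicate gave 43 of 13469 without replicate 1, 85 of 13636 without replicate 2 and 35 of 13553 without replicate 3. The cause was not tested. None of the listed genes that could be tested was called under any of these settings. With so few genes called among all those tested, that says little about the listed genes. Without replicate 3 Tcrg-C4 had an unadjusted p of 0.0395 (edgeR, adjusted 0.854). Leaving out a replicate moved none of 30 levels of the listed genes and none of 18 V shares by more than their spread. That outcome was fixed in advance, because leaving out 1 of 3 values cannot move a mean by as much as the SD. Other settings moved 18 of 50 levels, 8 of them CPM values set against TPM, a change of unit, and 3 of 24 shares: in the second quantification Tcrg-V1 held 25.7% of gamma V counts, Tcrg-V2 49.9% and Tcrg-V6 0.647%, and Tcrg-V2 was at 12.7 TPM in place of 5.63. The alternatives for the ratio of Tcrg-V1 to Tcrg-V2 were chosen after seeing the data. No paired analysis was possible because the libraries form 1 group. Depth limits Tcrg-V6 and Trdv4, with at most 3 counts per library.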

Other observations

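The counts of the delta V segments Trdv2-1 and Trdv2-2 were divided differently in 1 library. In replicates 1 and 2 all 27 and 20 counts of the pair went to Trdv2-2, while replicate 3 had 8.83 for Trdv2-1 and 11.17 for Trdv2-2. The second quantification gave 0 counts to Trdv2-1 in every library and 20 to Trdv2-2 in replicate 3. The sum of the pair was 27, 20 and 20 in the gene table and 16, 14 and 20 in the second quantification.

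Trav15d-1-dv6d-1, a V segment that the alpha and delta chains share, had 0, 4 and 0 counts in the gene table and 7, 7 and 9.62 in the second quantification. Trav15-2-dv6-2 had 10, 18.0 and 10.8 counts in the gene table against 12.7, 1.84 and 0. Antisense entries that overlap the listed genes had few counts over the 3 libraries: 0 for Gm43434 across Trdc, 2 for Gm31887 across Tcrg-V4 and Tcrg-V6, and 1 for Gm30275 across Trdv4.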
